A study of Mus musculus with 14 samples.

Results

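The 37 genes described here carry fatty acids into the heart muscle cell, release them from stored fat, oxidize them in mitochondria and use ketone bodies. They were chosen by symbol from a count table of 49315 genes, and each symbol matched 1 row. All 37 passed the filter on low counts, which kept 15292 genes, with between 30 and 178970 reads per library. RNA-Seq was performed on left ventricular tissue of wild-type (WT) mice and of HCN4F knock-in mice, in which a tyrosine-to-phenylalanine exchange in the C-linker of the pacemaker channel HCN4 makes the channel open more readily. Male mice of 10 to 12 weeks underwent transverse aortic constriction (TAC), a narrowing of the aorta that loads the left ventricle with pressure, or a Sham operation, and hearts were taken 5 weeks later. The groups available here were WT-Sham, HCN4F-Sham and HCN4F-TAC with 4 libraries each and WT-TAC with 2 libraries, replicates 2 and 3. The study describes the samples of a group as biological replicates. It reports groups of equal size, so its WT-TAC group was larger than the one available here. The knock-in is carried by all cells of the animal and was not restricted to the heart, and neither zygosity nor strain is given in the sources used here. The count of Hcn4 does not show the exchange. It stood at 8.07 to 10.6 CPM (counts scaled to a common library size) in WT-Sham and 6.36 to 13.0 CPM in HCN4F-Sham. In WT-TAC it was at 11.9 to 13.5 CPM, above all HCN4F-TAC libraries at 3.49 to 9.07 CPM.

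The heart draws most of its ATP from long-chain fatty acids. These are freed from lipoproteins or from lipid droplets, enter the cell through transporters, are activated to acyl-CoA and cross the inner mitochondrial membrane as carnitine esters. In the matrix the beta-oxidation spiral shortens them stepwise to acetyl-CoA, and electron transfer flavoprotein passes the electrons of the first step to the respiratory chain. Malonyl-CoA, made by an acetyl-CoA carboxylase and removed by malonyl-CoA decarboxylase, holds back the carnitine shuttle. Ketone bodies are a further fuel, and enlarged or failing hearts are known for a lower use of fatty acids and a higher use of ketones.

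Libraries held 22309914 to 35210939 counts, and mitochondrially encoded genes took 13.9% to 23.1% of them, with 13.9% to 18.6% in HCN4F-TAC and 17.1% to 23.1% in both Sham groups. Markers of heart muscle were high, with Myh6 at 19964 CPM or more in each library, which does not tell ventricle from atrium. HCN4F-TAC replicate 2 was high for some atrial markers, with Myl7 at 9.91 CPM against at most 0.694 CPM in all other libraries. Not all markers of the atrial list were high, and Kcnj3 fell in HCN4F hearts after TAC. Whether atrial tissue was present was not tested. Replicate 4 also lay above the other 12 libraries for some atrial markers, with Myl4 at 4.07 CPM, Dkk3 at 13.4 CPM and Bmp10 at 0.529 CPM, where replicate 2 had 17.4, 24.2 and 0 CPM and those 12 libraries at most 2.63, 7.55 and 0.0829 CPM. HCN4F-TAC replicate 3 had the lowest collagen level of its group, with Col1a1 at 216 CPM against 351, 417 and 383 CPM in replicates 1, 2 and 4. For 30 of the 37 fatty acid and ketone genes replicate 3 was also the highest HCN4F-TAC library, a position it held for 27.9% of all tested genes. Calls that were lost without one of these libraries are named below. In bulk tissue, fewer cells of a type and less RNA per cell cannot be told apart.

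Per kilobase of exon, levels in WT-Sham spanned 3.00 to 3712 CPM. Fabp3, the fatty acid binding protein of heart muscle cytosol, was at the top with 3712 ± 103 CPM per kb (SD, n = 4), and 29.2% of its 50-base stretches also occur in the pseudogene Fabp3-ps1. The next levels were those of the thiolase Acaa2 with 520 ± 40.2, the lipase Lpl with 471 ± 23.1 and the dehydrogenase Acadl with 429 ± 4.71 CPM per kb. The lowest were Acot1 with 3.00 ± 0.674, Cpt1a with 5.59 ± 0.496, Lipe with 9.51 ± 1.41 and Ucp3 with 10.7 ± 6.14 CPM per kb. Of the carnitine palmitoyltransferases of the outer membrane, Cpt1b, the muscle form, lay at 22.4 ± 1.37 CPM per kb, but 81.4% of its exon bases are shared with the same-strand gene model Gm44502, so that this level is uncertain.

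**Figure D1:**
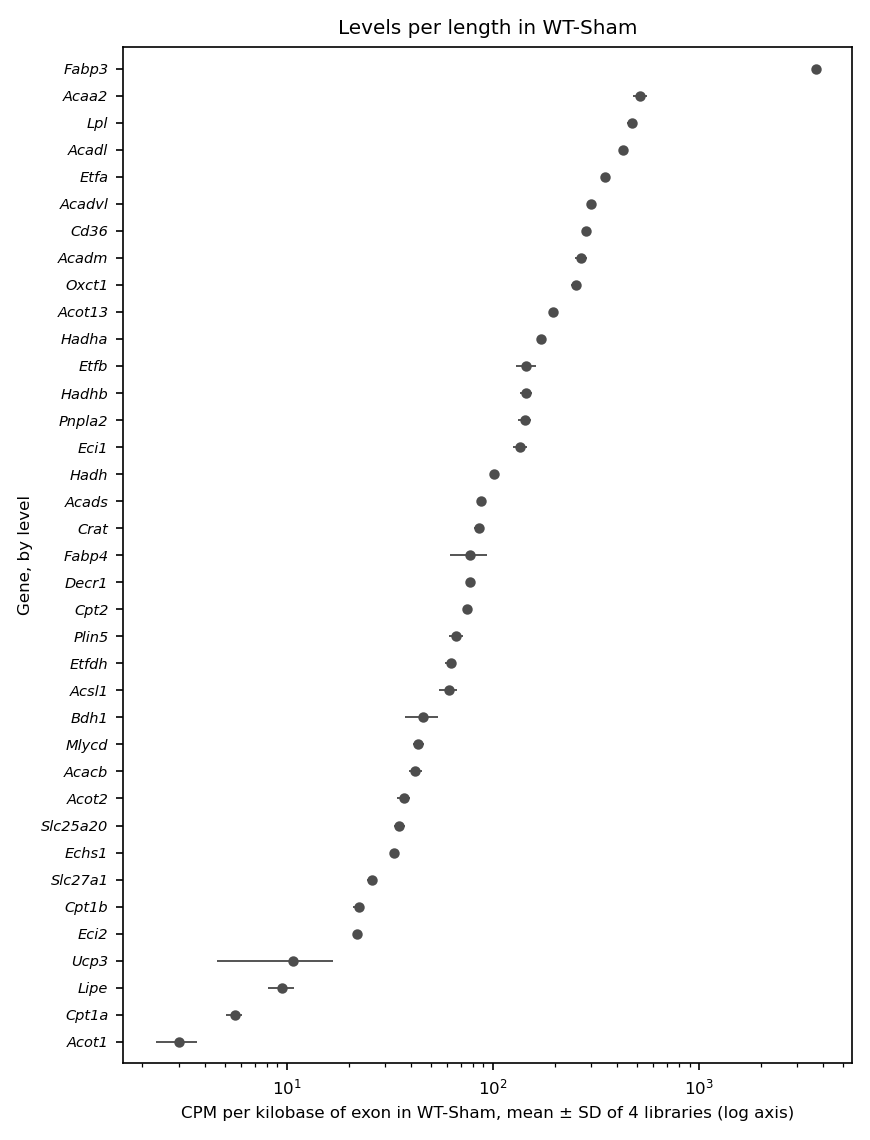
Level of each gene in WT-Sham as CPM per kilobase of exon on a log axis, with points for the mean and bars for the SD of 4 libraries. Genes are ordered by level, from Fabp3 at 3712 down to Acot1 at 3.00, and the bar of Ucp3 is the widest relative to its level.

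After TAC most of these genes were lower in HCN4F hearts, and few passed the test in WT hearts. In HCN4F-TAC against HCN4F-Sham, 20 of the 37 genes fell and 1 gene, Bdh1, rose at an adjusted p-value under 0.05 in edgeR's quasi-likelihood test. Among all 15292 tested genes 6.41% fell and 7.20% rose by the same rule. The median log2 fold change of the 37 genes was -0.26, a decrease of about 16.7%, and 34 of them had a fold change below 0, as did 51.1% of all tested genes, whose median was -0.0067. The 10 cardiomyocyte markers described below had a median of -0.24 in the same comparison. For 13 of the 37 genes every HCN4F-TAC library lay below every HCN4F-Sham library, which held for 7.16% of all tested genes. The study's threshold also asks for a log2 fold change above 1 or below -1, and only Acot1 and Ucp3 passed it, against 2.75% of all tested genes. Without HCN4F-TAC replicate 2 or 4, Acot1 alone did (edgeR adjusted p of Ucp3 = 0.0601 and 0.0539).

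In WT-TAC against WT-Sham, 2 of the 37 genes fell, Acaa2 and Etfb, and none rose, where 1.62% of all tested genes fell and 2.92% rose. Their median log2 fold change was -0.12, and 26 of the 37 were below 0, against 53.5% of all tested genes. Both WT-TAC libraries lay below all 4 WT-Sham libraries for 17 genes, a pattern seen in 20.0% of all tested genes, and above all of them for Cd36, Cpt1b, Acacb and Oxct1, a pattern seen in 19.2%. No gene of the module passed the study's threshold in WT, which 0.706% of all tested genes did. In edgeR on all groups, Acaa2 and Etfb were the genes of the module called in both genotypes. DESeq2 on all groups also called Eci1 lower and Bdh1 higher in WT, where 2.97% of all tested genes fell and 5.04% rose. Over 24 alternative settings and left-out libraries, the WT log2 fold changes ran from -0.58 to -0.46 for Acaa2 and from -0.62 to -0.50 for Etfb. But the WT calls rest on 2 TAC libraries, and without either of them neither Acaa2 nor Etfb was called in WT. Most other WT calls were lost as well: over all genes 447 higher and 247 lower became 129 and 58 without WT-TAC replicate 2, and 9 and 2 without replicate 3. Without WT-Sham replicate 1 or 4, Etfb was not called, and the calls over all genes were 122 and 49 or 119 and 39. Fitted on the WT groups alone, edgeR called 4 genes lower (Acaa2, Eci1, Etfb and Plin5) and 3 higher (Acacb, Cpt1b and Oxct1), and 4.79% and 8.29% of all tested genes. The WT and HCN4F comparisons differ in their number of libraries, so their counts are not directly comparable.

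The library counts show how this was spread over animals. Against the mean of WT-Sham, the median log2 difference of the 37 genes was -0.30, -0.35, -0.14 and -0.39 in HCN4F-TAC replicates 1 to 4. It was -0.083 and -0.12 in WT-TAC replicates 2 and 3, and between -0.098 and 0.061 in the HCN4F-Sham libraries. Replicate 3 of HCN4F-TAC thus lay closest to the other groups, and replicate 4 farthest away. Without replicate 3, 22 genes fell in HCN4F hearts, and without replicate 2, the library with the highest Myl7, 13 did, with Bdh1 called higher both times. Without replicate 4, in which some atrial markers were high too, the number was also 13. Lpl, Fabp4, Slc25a20, Acadvl, Eci2, Etfa and Ucp3 lost their calls without replicate 2, and the same 7 without replicate 4. Without replicate 2 the edgeR adjusted p was 0.0837 for Lpl, 0.138 for Fabp4, 0.102 for Slc25a20, 0.0898 for Acadvl, 0.0583 for Eci2 and 0.0896 for Etfa, with log2 fold changes of -0.27, -0.46, -0.25, -0.24, -0.23 and -0.26. Lpl and Fabp4 were not called without replicate 3 either (edgeR adjusted p = 0.0796 and 0.0682). Over all genes 1137 fell without replicate 3, 590 without replicate 2 and 681 without replicate 4, against 980 with all libraries. Over 24 alternative settings and left-out libraries, 13 of the 21 called genes stayed past the threshold throughout, 12 of them lower, and the other 8 did not.

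**Figure D2:**
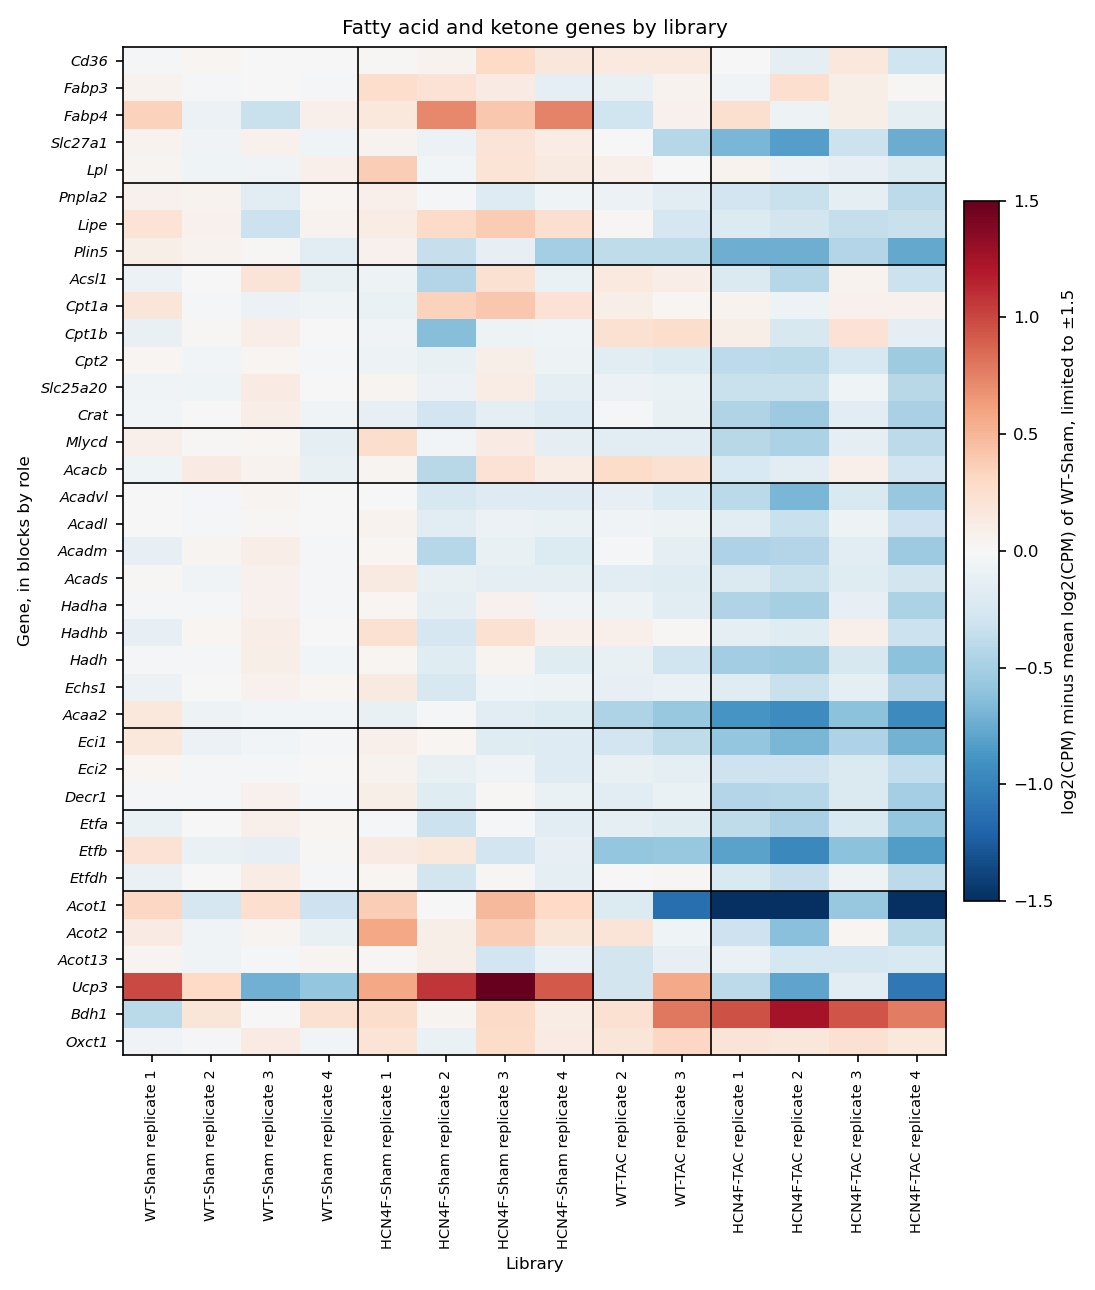
Log2 CPM of each gene in each library, minus the mean log2 CPM of WT-Sham, in blocks by role (rows) and by group (columns); blue is lower, red is higher, and colours stop at ±1.5. The mostly blue HCN4F-TAC columns have medians of -0.14 to -0.39, and Bdh1 near the bottom is red in all 4 of them.

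**Figure D3:**
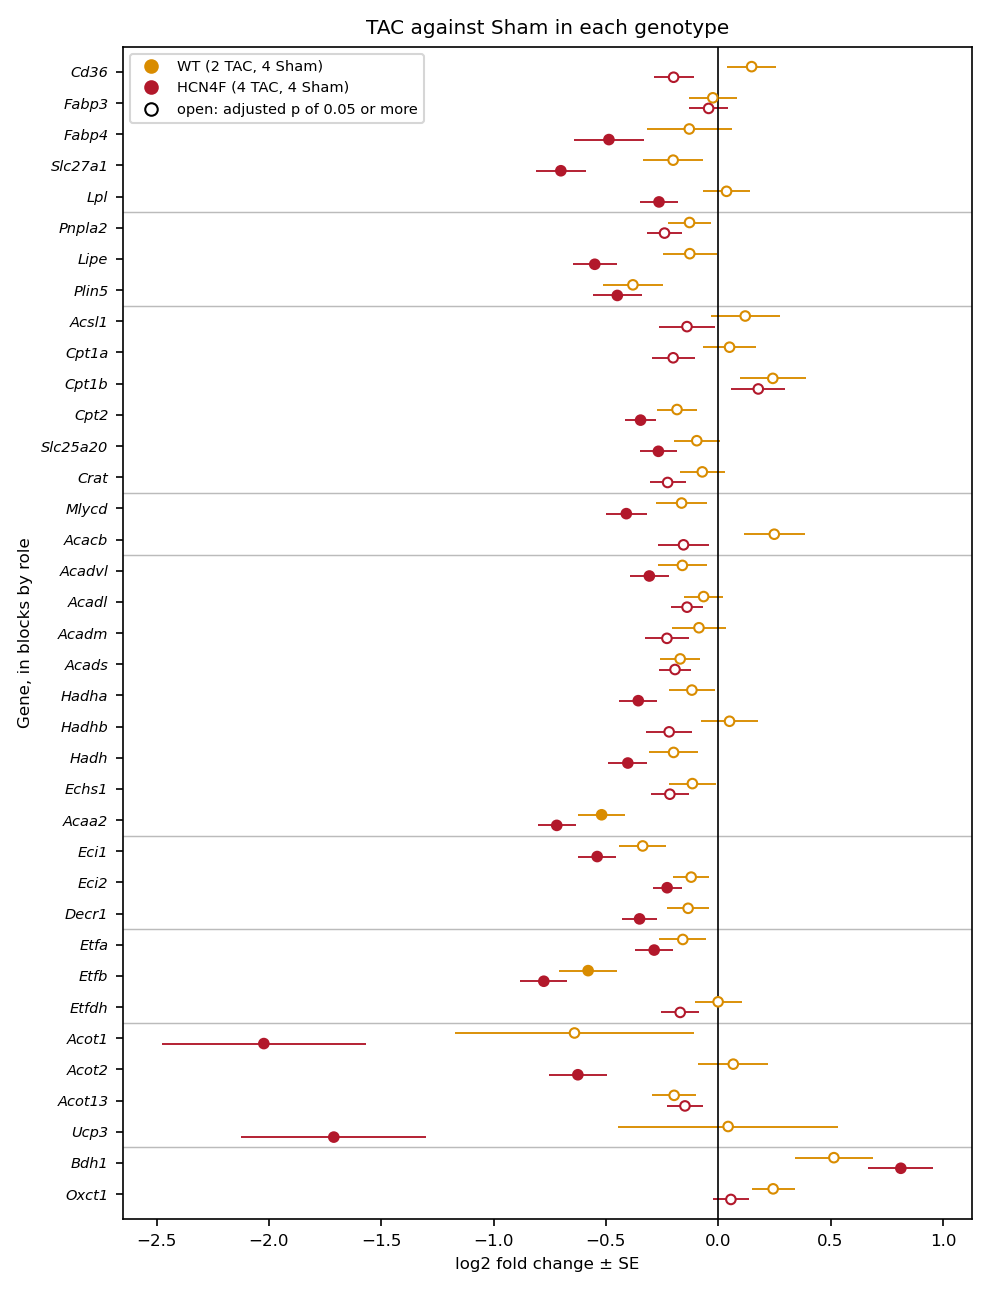
Log2 fold change after TAC with its SE for each gene, in WT (2 TAC and 4 Sham libraries) and HCN4F (4 and 4). Filled points have an adjusted p under 0.05: Acaa2 and Etfb in WT, and 21 genes in HCN4F, of which Bdh1 alone lies to the right of 0.

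Of the 5 uptake genes, 3 fell in HCN4F hearts after TAC and none passed the test in WT. Slc27a1, a fatty acid transport protein of the cell membrane that also activates fatty acids (ENSMUSG00000031808, chr8:71568882-71587302, GRCm38), moved most. Slc27a1 stood at 156, 145, 158 and 144 CPM in WT-Sham, 156, 141, 172 and 163 CPM in HCN4F-Sham, 150.3 and 112 CPM in WT-TAC and 93.6, 84.6, 121 and 90.0 CPM in HCN4F-TAC. All 4 HCN4F-TAC libraries were below all HCN4F-Sham libraries, and the WT-TAC libraries lay apart, with replicate 2 inside the WT-Sham range and replicate 3 below it. The log2 fold change was -0.70 ± 0.11 (SE) in HCN4F, a fall of 38.5% (edgeR adjusted p = 0.000642), and -0.20 ± 0.13 in WT (edgeR adjusted p = 0.397).

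Lpl is the lipase that frees fatty acids from lipoproteins at the vessel wall, and it had the most reads of the uptake genes. Lpl gave 5066, 4729, 4745 and 5219 CPM in WT-Sham, 6363, 4797, 5680.4 and 5403 CPM in HCN4F-Sham, 5214 and 4921 CPM in WT-TAC and 5109, 4641, 4523 and 4254 CPM in HCN4F-TAC. HCN4F-Sham replicate 1 was the highest and HCN4F-TAC replicate 4 the lowest library, and the HCN4F groups overlapped. The log2 fold change in HCN4F was -0.26 ± 0.085 (edgeR adjusted p = 0.0496), and Lpl stayed under 0.05 in 6 of 24 alternatives. Cd36, the main fatty acid translocase of the heart, was not called. Cd36 was at 1005, 1039, 1019 and 1018 CPM in WT-Sham, 1034, 1057, 1254 and 1150.1 CPM in HCN4F-Sham, 1134 and 1128 CPM in WT-TAC and 1027, 919, 1139.9 and 829 CPM in HCN4F-TAC. Both WT-TAC libraries lay above all WT-Sham libraries, whereas HCN4F-TAC ran from 829 to 1139.9 CPM and overlapped HCN4F-Sham. Cd36 had log2 fold changes of 0.15 ± 0.11 in WT and -0.20 ± 0.089 in HCN4F, with edgeR adjusted p-values of 0.442 and 0.153. Fabp4, a binding protein that endothelial cells and adipocytes also make, fell by 28.6% in HCN4F (edgeR adjusted p = 0.0498) and kept this call in 11 of 24 alternatives. Its libraries ranged from 272 to 574 CPM. Fabp3 ranged from 2786 to 3657 CPM, with log2 fold changes of -0.024 in WT and -0.043 in HCN4F.

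Of the 3 genes that release fatty acids from lipid droplets, Lipe (hormone-sensitive lipase) and Plin5, a perilipin that couples lipid droplets to mitochondria, fell in HCN4F hearts after TAC, and Pnpla2 was not called. Lipe stood at 64.0, 57.9, 44.4 and 57.7 CPM in WT-Sham, 60.1, 67.6, 72.1 and 65.7 CPM in HCN4F-Sham, 56.1 and 46.6 CPM in WT-TAC and 48.2, 45.7, 43.4 and 44.0 CPM in HCN4F-TAC. HCN4F-Sham was entirely above HCN4F-TAC, but WT-Sham already ranged from 44.4 to 64.0 CPM and reached down to the TAC level. Lipe had a log2 fold change of -0.55 ± 0.10 in HCN4F (edgeR adjusted p = 0.0017) and of -0.13 ± 0.12 in WT (edgeR adjusted p = 0.572). Of its exon bases 15.6% lie opposite the antisense gene 4732471J01Rik, and whether strand was used in counting is not given in the sources used here. Pnpla2, the lipase of the first step of triglyceride breakdown, is the most counted of the group. Pnpla2 gave 452, 449, 387 and 442 CPM in WT-Sham, 456, 428, 377 and 414 CPM in HCN4F-Sham, 407 and 384 CPM in WT-TAC and 354, 342, 393 and 329.5 CPM in HCN4F-TAC. The HCN4F-TAC libraries overlapped HCN4F-Sham only through replicate 3 of each group, and the log2 fold change was -0.24 ± 0.079 (edgeR adjusted p = 0.0543). Plin5 ranged from 97.2 to 145 CPM in HCN4F-Sham and from 81.6 to 102 CPM in HCN4F-TAC, where replicate 3 was the highest and overlapped HCN4F-Sham. It had log2 fold changes of -0.45 ± 0.11 in HCN4F (edgeR adjusted p = 0.0114) and -0.38 ± 0.13 in WT (edgeR adjusted p = 0.109).

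Of the 6 genes of activation and the carnitine shuttle, Cpt2 and Slc25a20 fell in HCN4F hearts, and the other 4, Acsl1, Cpt1a, Cpt1b and Crat, were not called. Cpt2 turns the carnitine ester back into acyl-CoA inside the mitochondrion (ENSMUSG00000028607, chr4:107903981-107923610). Cpt2 stood at 183, 173, 183 and 176 CPM in WT-Sham, 169, 166, 189 and 170.0 CPM in HCN4F-Sham, 159.6 and 155 CPM in WT-TAC and 136, 135, 152 and 124 CPM in HCN4F-TAC. The HCN4F-TAC libraries were the lowest 4 of all 14, and the WT-TAC libraries lay just below WT-Sham. The fall was 21.3% in HCN4F (log2 fold change -0.35 ± 0.071, edgeR adjusted p = 0.00416), with -0.18 ± 0.087 in WT (edgeR adjusted p = 0.228). Slc25a20, the carnitine carrier of the inner membrane, had a log2 fold change of -0.27 ± 0.083 in HCN4F (edgeR adjusted p = 0.0408) and kept the call in 12 of 24 alternatives.

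Acsl1, the main acyl-CoA synthetase of the heart, varied within groups. Acsl1 gave 600.1, 642, 733 and 591 CPM in WT-Sham, 606, 470.1, 749 and 597 CPM in HCN4F-Sham, 710.0 and 684 CPM in WT-TAC and 549, 476, 664 and 510.1 CPM in HCN4F-TAC. HCN4F-Sham alone spanned the whole HCN4F-TAC range, from 470.1 to 749 CPM, and the log2 fold change in HCN4F was -0.14 ± 0.13 (edgeR adjusted p = 0.499). Crat moves short acyl groups between CoA and carnitine. Crat was at 447, 461, 496 and 445 CPM in WT-Sham, 424, 379, 422 and 404 CPM in HCN4F-Sham, 454 and 426 CPM in WT-TAC and 338, 317, 409 and 328 CPM in HCN4F-TAC. Replicates 1, 2 and 4 of HCN4F-TAC were the lowest libraries, and replicate 3 lay within HCN4F-Sham. Crat had a log2 fold change of -0.23 ± 0.081 in HCN4F (edgeR adjusted p = 0.0743). The entry enzymes had log2 fold changes of -0.20 ± 0.10 for Cpt1a and 0.18 ± 0.12 for Cpt1b in HCN4F, with edgeR adjusted p-values of 0.177 and 0.357. Cpt1b and both ketone genes were thus the genes of the module with a positive fold change in HCN4F.

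Of the malonyl-CoA enzymes, Mlycd, which removes it, fell in HCN4F hearts, and Acacb, which makes it at the mitochondrial surface, was not called in either genotype by edgeR on all groups. Fitted on the WT groups alone, DESeq2 and edgeR called Acacb higher in WT. Mlycd stood at 136, 131, 132 and 118 CPM in WT-Sham, 155, 126, 141 and 117 CPM in HCN4F-Sham, 116 and 115 CPM in WT-TAC and 96.8, 92.7, 118 and 98.6 CPM in HCN4F-TAC. HCN4F-TAC replicate 3 lay just above the lowest HCN4F-Sham library, so that the groups overlapped, and the other 3 replicates were the lowest of all libraries. Mlycd had a log2 fold change of -0.41 ± 0.092 in HCN4F (edgeR adjusted p = 0.00751) and -0.16 ± 0.11 in WT (edgeR adjusted p = 0.415). Acacb gave 388, 439, 420.0 and 375 CPM in WT-Sham, 418, 304, 469.5 and 437 CPM in HCN4F-Sham, 491 and 473 CPM in WT-TAC and 345, 359, 426 and 333 CPM in HCN4F-TAC. The WT-TAC libraries were the highest of all, and HCN4F-Sham was wide, with replicate 2 at the bottom. The log2 fold changes of Acacb pointed in opposite directions, 0.25 ± 0.14 in WT and -0.15 ± 0.11 in HCN4F, with edgeR adjusted p-values of 0.299 and 0.392.

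All 9 enzymes of the beta-oxidation spiral had a negative log2 fold change in HCN4F hearts, between -0.72 and -0.14, and 4 of them passed the test (Acaa2, Hadh, Hadha and Acadvl). In WT 8 of the 9 were negative and Acaa2 passed. Acaa2, the thiolase that splits off acetyl-CoA at the end of each turn (ENSMUSG00000036880), had the lowest p of the whole module. Acaa2 stood at 878, 746, 761 and 766 CPM in WT-Sham, 728, 773, 701 and 681 CPM in HCN4F-Sham, 571 and 529 CPM in WT-TAC and 425, 410.0, 512 and 404 CPM in HCN4F-TAC. Each TAC library of either genotype was below each Sham library. Acaa2 fell by 39.2% in HCN4F (log2 fold change -0.72 ± 0.084, edgeR adjusted p = 6.94e-05) and by 30.2% in WT (log2 fold change -0.52 ± 0.10, edgeR adjusted p = 0.0144). No 50-base stretch of its exons occurs in another gene.

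Hadh, the dehydrogenase of the third step for shorter chains (ENSMUSG00000027984, chr3:131233419-131272101), followed. Hadh gave 494, 498, 537 and 490.1 CPM in WT-Sham, 514, 446, 520.4 and 443 CPM in HCN4F-Sham, 468 and 411 CPM in WT-TAC and 349.9, 349, 426 and 329.7 CPM in HCN4F-TAC. HCN4F-TAC replicate 3 came close to the lowest HCN4F-Sham library, and the other 3 HCN4F-TAC replicates were the lowest of all. Hadh had a log2 fold change of -0.40 ± 0.087 in HCN4F (edgeR adjusted p = 0.00591) and -0.20 ± 0.11 in WT (edgeR adjusted p = 0.291). Hadha is the larger subunit of the mitochondrial trifunctional protein, which acts on long chains, and the most counted gene of the spiral. Hadha was at 1473, 1482, 1563 and 1463 CPM in WT-Sham, 1531, 1355, 1559 and 1441 CPM in HCN4F-Sham, 1417 and 1339 CPM in WT-TAC and 1092, 1054, 1377 and 1076 CPM in HCN4F-TAC. Replicates 1, 2 and 4 of HCN4F-TAC were the lowest of all libraries, and replicate 3 lay inside the HCN4F-Sham range. Hadha fell by 21.9% in HCN4F (log2 fold change -0.36 ± 0.084, edgeR adjusted p = 0.00982). Its partner Hadhb, which lies next to it in the genome on the other strand, had a log2 fold change of -0.22 ± 0.10 (edgeR adjusted p = 0.178), and 18.1% of its 50-base stretches occur in Gm13910.

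Acadvl opens the spiral for very long chains. Acadvl stood at 799, 786, 823 and 802 CPM in WT-Sham, 806, 679, 699 and 702 CPM in HCN4F-Sham, 739 and 698 CPM in WT-TAC and 604, 499.7, 687 and 543 CPM in HCN4F-TAC. HCN4F-TAC replicate 3 lay inside the HCN4F-Sham range, the other 3 below it. Acadvl had a log2 fold change of -0.31 ± 0.088 in HCN4F (edgeR adjusted p = 0.0281), a call kept in 18 of 24 alternatives, and 42.9% of its exon bases overlap Dvl2 on the other strand, a gene at 21.7 to 40.5 CPM. The dehydrogenases for long, medium and short chains were not called in HCN4F, with log2 fold changes of -0.14 ± 0.072 for Acadl, -0.23 ± 0.10 for Acadm and -0.19 ± 0.072 for Acads. Acadl ranged from 763 to 893 CPM in HCN4F-Sham and from 682 to 818 CPM in HCN4F-TAC, Acadm from 784 to 1071 and from 722 to 934 CPM, and Acads, whose HCN4F groups did not overlap, from 179 to 217 and from 157 to 174 CPM. Not called either was the hydratase Echs1 at -0.22 ± 0.084. Their edgeR adjusted p-values ran from 0.0856 for Acads to 0.221 for Acadl.

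All 3 enzymes that prepare unsaturated fatty acids for the spiral fell in HCN4F hearts, and none was called in WT by edgeR on all groups. Eci1, an enoyl-CoA isomerase (ENSMUSG00000024132, chr17:24426641-24439348), had the lowest p of them. Eci1 stood at 322, 271, 279 and 284 CPM in WT-Sham, 303, 293, 254 and 251 CPM in HCN4F-Sham, 235 and 222 CPM in WT-TAC and 193, 179, 209 and 177 CPM in HCN4F-TAC. The groups did not overlap between Sham and TAC in either genotype. Eci1 had log2 fold changes of -0.54 ± 0.084 in HCN4F (edgeR adjusted p = 0.00061) and -0.34 ± 0.10 in WT (edgeR adjusted p = 0.0723). Its fall in WT was called in 3 of 24 alternatives: DESeq2 on all groups, and DESeq2 and edgeR on the WT groups alone. Decr1, the dienoyl-CoA reductase of mitochondria, was the most counted. Decr1 gave 296, 293, 313 and 295 CPM in WT-Sham, 319, 264, 303 and 279 CPM in HCN4F-Sham, 267 and 279 CPM in WT-TAC and 222, 223, 257 and 211 CPM in HCN4F-TAC. HCN4F-TAC lay below all other libraries, although replicate 3 was close to HCN4F-Sham replicate 2. Decr1 fell by 21.6% (log2 fold change -0.35 ± 0.076, edgeR adjusted p = 0.00619), and Eci2 by 14.6% (log2 fold change -0.23 ± 0.065, edgeR adjusted p = 0.0267), in HCN4F. Eci2 kept its call in 16 of 24 alternatives.

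In electron transfer, Etfb and Etfa, the subunits of electron transfer flavoprotein, fell in HCN4F hearts, and Etfdh, which hands the electrons to ubiquinone, was not called. Etfb (ENSMUSG00000004610, chr7:43444083-43457800), like Acaa2, was called in both genotypes by edgeR on all groups. Etfb stood at 195, 157, 155 and 170.0 CPM in WT-Sham, 183, 188, 138 and 154 CPM in HCN4F-Sham, 113 and 114 CPM in WT-TAC and 96.5, 86.5, 109.9 and 94.4 CPM in HCN4F-TAC. Each of the 6 TAC libraries was below each of the 8 Sham libraries. Etfb fell by 41.6% in HCN4F (log2 fold change -0.78 ± 0.10, edgeR adjusted p = 0.000195) and by 33.1% in WT (log2 fold change -0.58 ± 0.13, edgeR adjusted p = 0.0248). Same-strand gene model Gm45233 shares 53.0% of its exon bases and was counted at no more than 0.114 CPM. The treatment of reads in the shared bases is not given in the sources used here, so the level of Etfb is uncertain. Etfa gave 603, 644, 679 and 657 CPM in WT-Sham, 633, 517, 637 and 575 CPM in HCN4F-Sham, 588 and 569.8 CPM in WT-TAC and 495, 459.6, 551 and 432 CPM in HCN4F-TAC. HCN4F-TAC and HCN4F-Sham overlapped, since HCN4F-Sham replicate 2 lay below HCN4F-TAC replicate 3. Etfa had a log2 fold change of -0.29 ± 0.085 in HCN4F (edgeR adjusted p = 0.0339), kept in 15 of 24 alternatives, and Etfdh one of -0.17 ± 0.086 (edgeR adjusted p = 0.209).

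Acot2, Acot1 and Ucp3 fell in HCN4F hearts, and no gene of this group passed the test in WT by edgeR on all groups. DESeq2 on the WT groups alone called Acot1 lower. Acot1 and Acot2 release fatty acids from acyl-CoA in the cytosol and in mitochondria, and they are neighbours on chromosome 12 that share sequence, at chr12:84009490-84018371 and chr12:83987861-83993873. Of the 50-base stretches of Acot1, 13.6% occur in Acot2, and of those of Acot2, 24.6% occur in Acot1, so that reads may have been split between them and both are uncertain. Acot2 stood at 88.6, 78.2, 83.9 and 75.4 CPM in WT-Sham, 122, 86.6, 105 and 92.2 CPM in HCN4F-Sham, 93.3 and 77.5 CPM in WT-TAC and 65.7, 52.8, 83.1 and 61.6 CPM in HCN4F-TAC. HCN4F-Sham was above WT-Sham except in replicate 2, and all 4 HCN4F-TAC libraries were below HCN4F-Sham. Acot2 had log2 fold changes of -0.62 ± 0.13 in HCN4F (edgeR adjusted p = 0.00477) and 0.067 ± 0.16 in WT (edgeR adjusted p = 0.843). Acot1 gave 14.3, 9.68, 13.8 and 9.31 CPM in WT-Sham, 14.9, 11.6, 16.2 and 14.3 CPM in HCN4F-Sham, 9.98 and 5.30 CPM in WT-TAC and 2.86, 0.988, 7.77 and 2.36 CPM in HCN4F-TAC. It is the lowest gene of the module, and HCN4F-TAC replicate 3 again stood above the other 3. Acot1 had a log2 fold change of -2.02 ± 0.45 in HCN4F (edgeR adjusted p = 0.0134), the largest of the module in size, and -0.64 ± 0.53 in WT (edgeR adjusted p = 0.517). The HCN4F value was -2.81 without HCN4F-TAC replicate 3 and -1.70 without replicate 2, and the call held in 23 of 24 alternatives, with an edgeR adjusted p of 0.0524 in the HCN4F groups alone.

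Ucp3 is an inner membrane carrier known to follow the fatty acid supply of muscle (ENSMUSG00000032942, chr7:100472990-100486432). Ucp3 was at 59.6, 36.9, 18.2 and 20.0 CPM in WT-Sham, 44.9, 63.1, 101 and 56.6 CPM in HCN4F-Sham, 24.6 and 44.5 CPM in WT-TAC and 22.8, 17.3, 26.7 and 14.2 CPM in HCN4F-TAC. WT-Sham was itself spread from 18.2 to 59.6 CPM, and HCN4F-Sham ranged from 44.9 to 101 CPM, above all HCN4F-TAC libraries. Ucp3 had log2 fold changes of -1.71 ± 0.41 in HCN4F (edgeR adjusted p = 0.0185) and 0.044 ± 0.49 in WT (edgeR adjusted p = 0.975), and it kept the call in 22 of 24 alternatives. Acot1 and Ucp3 are named because they alone passed the study's threshold. Acot13 gave 151, 141, 143 and 151 CPM in WT-Sham, 148, 156, 119.7 and 136 CPM in HCN4F-Sham, 121 and 135 CPM in WT-TAC and 137, 122, 122 and 125 CPM in HCN4F-TAC. This small mitochondrial thioesterase is the most counted gene of the group, its groups overlapped in HCN4F, and its log2 fold changes were -0.15 ± 0.08 in HCN4F and -0.20 ± 0.10 in WT, with edgeR adjusted p-values of 0.242 and 0.257.

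Genes of this pathway are known targets of PPAR-RXR, a nuclear receptor pair that binds direct repeats of the hexamer AGGTCA with 1 base between them, and of ERR receptors, which bind the hexamer preceded by TCA. RefSeq promoter windows (GRCm38.p6, 250 bases before to 50 after the start) were given for 30 of the 37 genes and searched on both strands. The direct repeat AGGTCANAGGTCA with up to 2 mismatches occurred in 5 of the 30 genes (16.7%), Cd36, Ucp3, Echs1, Etfa and Slc25a20, and in 4.40% of all 27025 genes with a window. The exact repeat was found in none of the 30 and in 0.0481% of all genes, the ERR motif TCAAGGTCA in none and in 0.466%. The single hexamer, which each exact longer motif contains, occurred in 8 of the 30 (26.7%) and in 18.1% of all genes. Of the 5 genes with a repeat, Ucp3, Etfa and Slc25a20 fell in HCN4F hearts and Cd36 and Echs1 were not called. Of all 37 genes of the module 20 (54.1%) fell. A match describes letters and was not tested for binding. The 250 bases before the Ucp3 start (chr7:100472741-100472990, plus strand, 5′ to 3′) are shown because Ucp3 passed the study's threshold and its window holds both motifs. Capitals mark the single hexamer 149 to 144 bases before the start and the repeat, with 2 mismatches, 51 to 39 bases before it.
Ucp3: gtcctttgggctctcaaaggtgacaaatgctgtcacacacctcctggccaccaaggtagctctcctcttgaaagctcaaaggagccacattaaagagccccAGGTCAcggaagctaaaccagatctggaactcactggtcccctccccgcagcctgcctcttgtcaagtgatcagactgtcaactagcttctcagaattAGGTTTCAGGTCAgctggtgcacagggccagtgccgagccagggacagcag
The other repeats are shown with 6 bases on each side, read along the strand of the gene, with the match in capitals. Those of Cd36 (chr5:17835941-17835965, minus strand) and Etfa (chr9:55512302-55512326, minus strand) match in antisense, and those of Echs1 (chr7:140116486-140116510, minus strand) and Slc25a20 (chr9:108662136-108662160, plus strand) in sense. All 4 have 2 mismatches, and the one of Slc25a20 lies just after the start.
Cd36: gttctcTGGCCTCTGACTTacttgg
Etfa: acacccTTACCTTTGCCCTactccc
Echs1: ccgctcAGGTCACGGGTCCacccct
Slc25a20: gaatgtAGGTGAAAGGTCGgcggag

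Bdh1, which oxidizes beta-hydroxybutyrate to acetoacetate (ENSMUSG00000046598, chr16:31422280-31458901), was the only gene of the module called higher by edgeR on all groups. Bdh1 stood at 133, 199, 176 and 206 CPM in WT-Sham, 211, 180.5, 214 and 189.8 CPM in HCN4F-Sham, 206 and 305 CPM in WT-TAC and 341, 417, 339 and 301 CPM in HCN4F-TAC. All HCN4F-TAC libraries were above all HCN4F-Sham libraries, and of the WT-TAC libraries replicate 2 lay within WT-Sham and replicate 3 above it. Bdh1 was 1.76-fold higher in HCN4F (log2 fold change 0.81 ± 0.15, edgeR adjusted p = 0.00201), with 0.51 ± 0.17 in WT (edgeR adjusted p = 0.0996). Without HCN4F-TAC replicate 3 or replicate 2 it was still called in HCN4F. Oxct1, which activates acetoacetate for oxidation, was not called by edgeR on all groups. DESeq2 and edgeR on the WT groups alone called Oxct1 higher in WT. Oxct1 gave 901, 921, 1015 and 908 CPM in WT-Sham, 1079, 875, 1132 and 1019 CPM in HCN4F-Sham, 1058 and 1159.9 CPM in WT-TAC and 1073, 1051, 1097 and 1048 CPM in HCN4F-TAC. Both WT-TAC libraries were above WT-Sham, and HCN4F-TAC lay within HCN4F-Sham. Oxct1 had log2 fold changes of 0.24 ± 0.10 in WT (edgeR adjusted p = 0.142) and 0.056 ± 0.078 in HCN4F (edgeR adjusted p = 0.681).

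**Figure D4:**
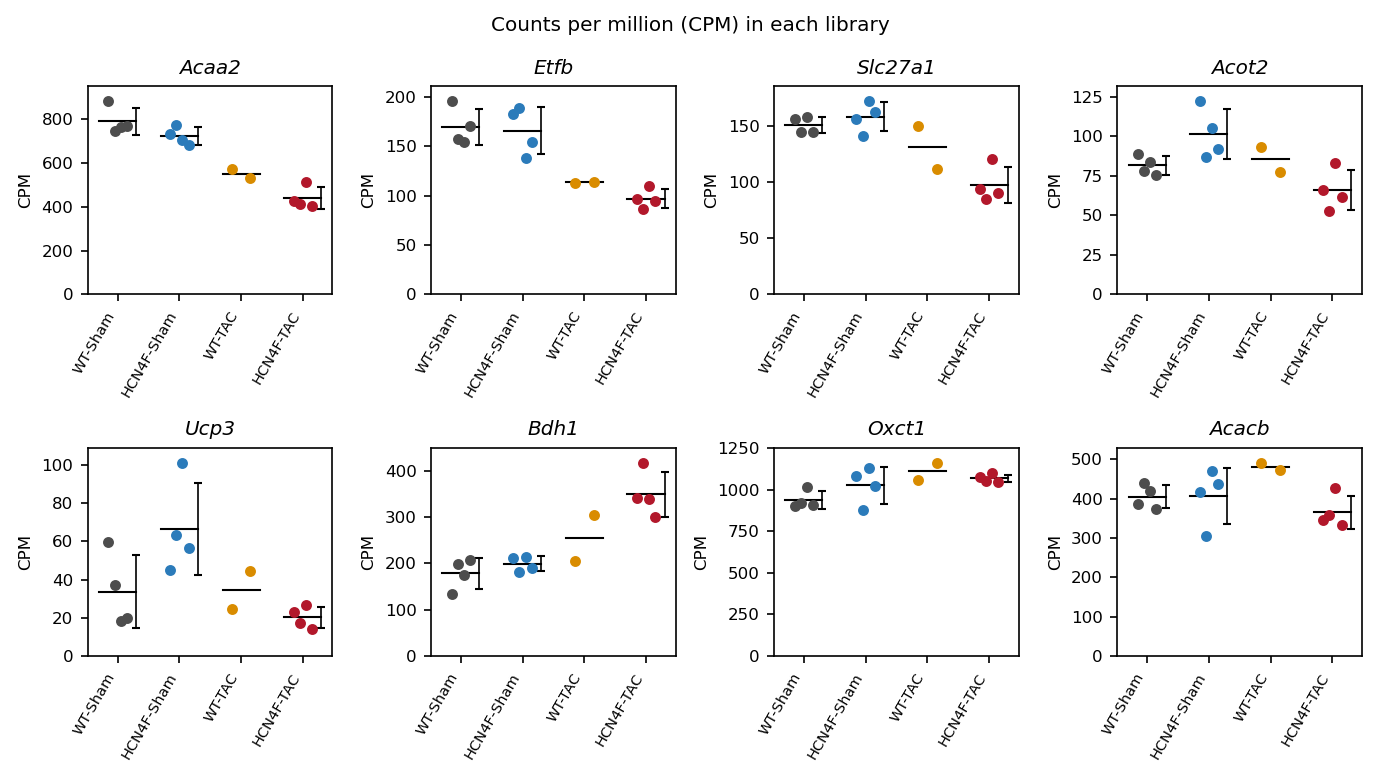
CPM of 8 genes in each library (points), with the group mean (line) and, for groups of 4, the SD (bar); each axis starts at 0. TAC lies below Sham for Acaa2 and Etfb in both genotypes, and HCN4F-TAC lies above HCN4F-Sham for Bdh1.

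The genotypes were compared within Sham to ask whether the knock-in alone alters these genes. No gene of the module was called in HCN4F-Sham against WT-Sham by edgeR or DESeq2, where 0.242% of all tested genes fell, 0.229% rose and 0.209% passed the study's threshold in edgeR. At an unadjusted p under 0.05, 1 gene of the module was lower (Crat) and 5 were higher (Fabp4, Lipe, Acot2, Cpt1a and Ucp3), against 7.27% and 7.93% of all tested genes. The log2 fold changes lay between -0.21 and 0.98, with a median of -0.042, and 22 of the 37 were below 0, against 48.9% of all tested genes. The highest was that of Ucp3, 0.98 ± 0.40 (edgeR adjusted p = 0.281), with means of 33.7 ± 19.2 CPM in WT-Sham and 66.4 ± 24.3 CPM in HCN4F-Sham (SD, n = 4 each). The number of genes with an unadjusted p under 0.05, 6 with all libraries, was 2 when replicate 3 of either Sham group was left out and 3 when WT-Sham replicate 2 was. The same fits had 1835 to 1931 of all tested genes under 0.05, against 2323 with all libraries. The median was 0.0026 without HCN4F-Sham replicate 2, with 18 genes below 0, -0.080 without HCN4F-Sham replicate 1, -0.027 without HCN4F-Sham replicate 4 and -0.019 without WT-Sham replicate 3, so its direction rests on single libraries. Without HCN4F-Sham replicate 1, Fabp4 and Cpt1a were called higher, and calls over all genes went from 35 higher and 37 lower to 306 and 261.

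Between the TAC groups no gene of the module passed the test in edgeR, but 34 of the 37 log2 fold changes of HCN4F-TAC against WT-TAC were below 0, against 49.3% of all tested genes. The median log2 fold change was -0.23. Only 0.0523% of all tested genes fell and 0.0589% rose at an adjusted p under 0.05, and 0.0719% passed the study's threshold. At an unadjusted p under 0.05 were 18 genes of the module, 17 of them lower and Bdh1 higher, and 12.5% of all tested genes, of which 764 were lower and 1140 higher. The count of 18 moved with single libraries. It was 2 without WT-TAC replicate 2, where 992 of all tested genes were under 0.05, and 12 without WT-TAC replicate 3, where 1628 were and 32 genes of the module were below 0. Both fits assume that the lone WT-TAC library varies like the other groups. It was 9 without HCN4F-TAC replicate 4 and 27 without HCN4F-TAC replicate 3, where 1534 and 2656 of all tested genes were under 0.05. Scaled by library size alone it was 11, with 1924 of all tested genes. For 17 of the 37 genes every HCN4F-TAC library lay below both WT-TAC libraries, as for 11.0% of all tested genes. DESeq2 on all groups called 1 gene of the module, Crat, and 172 genes higher and 56 lower overall. DESeq2 on the TAC groups alone called none of the module, and 142 higher and 45 lower overall.

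The 6 lowest p-values between the TAC groups belonged to Crat, Slc27a1, Acaa2, Acacb, Acadvl and Decr1. For Crat, HCN4F-TAC was at 338, 317, 409 and 328 CPM against 454 and 426 CPM in WT-TAC, a log2 fold change of -0.34 ± 0.10 (edgeR adjusted p = 0.17). Slc27a1 had -0.43 ± 0.13 (edgeR adjusted p = 0.187), with HCN4F-TAC replicate 3 above WT-TAC replicate 3. Without WT-TAC replicate 2 its value was -0.20 (edgeR adjusted p = 0.863), and without WT-TAC replicate 3 it was -0.63 (edgeR adjusted p = 0.174). Acaa2 and Acadvl had -0.33 ± 0.10 and -0.30 ± 0.11, with edgeR adjusted p-values of 0.19 and 0.256. Acacb had -0.40 ± 0.14 and Decr1 -0.26 ± 0.093, with edgeR adjusted p-values of 0.237 and 0.259. HCN4F-TAC lay wholly below WT-TAC for these genes except Slc27a1. Without HCN4F-TAC replicate 3, the highest library of its group for 30 of the 37 genes, 6 genes of the module were called lower: Acaa2, Acadvl, Acot1, Crat, Hadha and Slc27a1. In that fit 0.857% of all tested genes were called lower and 2.11% higher, 131 and 323 genes. Without replicate 2 none was called.

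**Figure D5:**
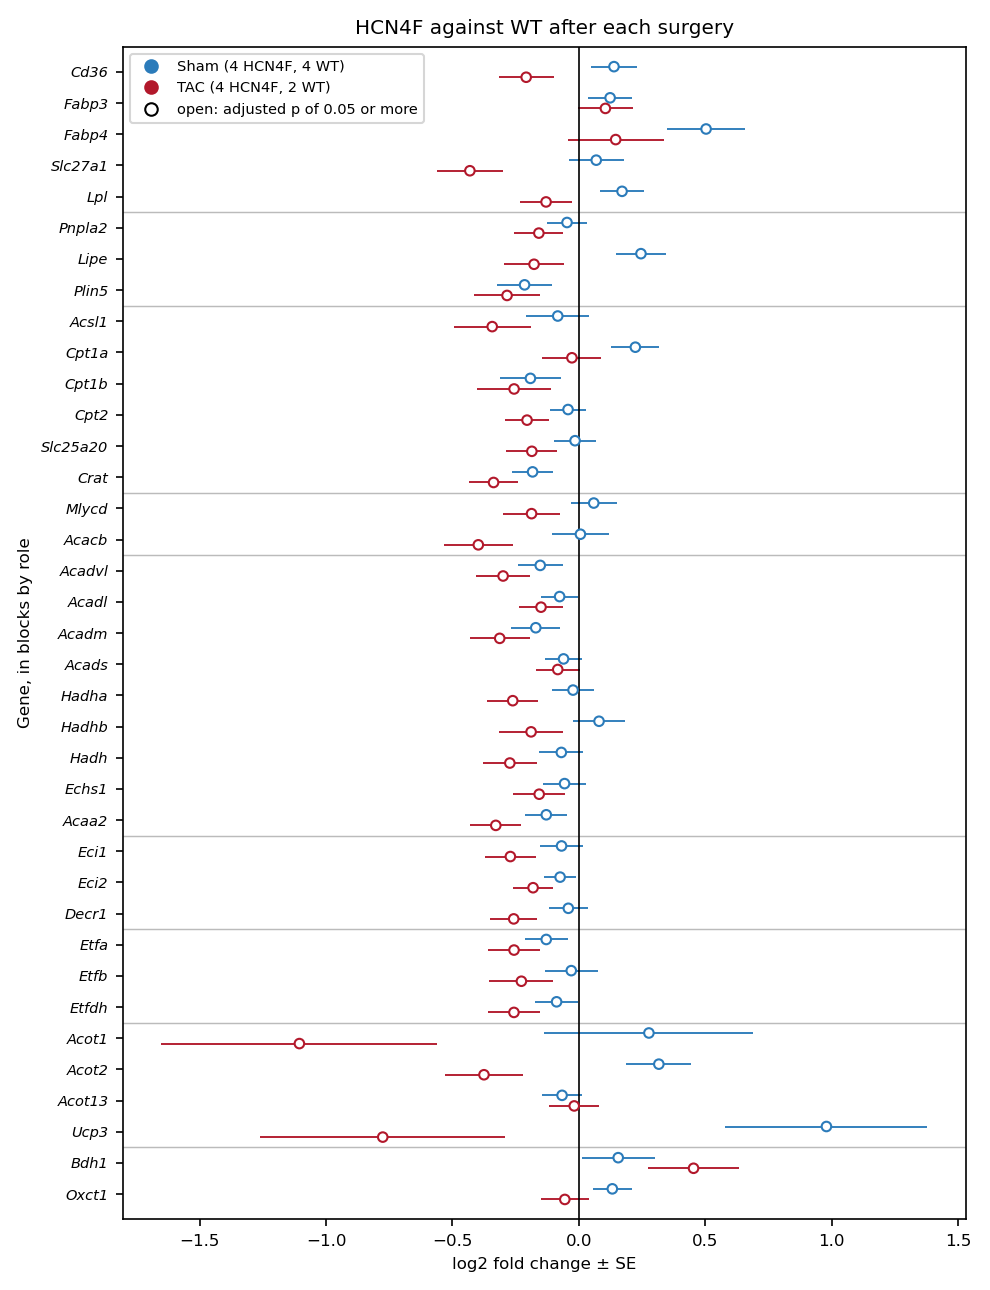
Log2 fold change of HCN4F against WT with its SE for each gene, after Sham (4 and 4 libraries) and after TAC (4 HCN4F and 2 WT libraries). All points are open, since no adjusted p was under 0.05, and 34 of the 37 TAC points lie to the left of 0.

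The genotype by surgery interaction tests whether the TAC responses differ. No gene of the module and none of the 15292 tested genes passed it in edgeR (0.00% lower and 0.00% higher), and DESeq2 called no gene of the module, and 25 genes higher and 15 lower overall. At an unadjusted p under 0.05, 7 genes of the module were lower and none was higher, against 4.39% and 4.88% of all tested genes. They were Acot2, Slc27a1, Lipe, Ucp3, Cd36, Acacb and Lpl. This count of 7 was 2 without WT-TAC replicate 2 and 15 without HCN4F-TAC replicate 3, where 7.04% and 13.4% of all tested genes were under 0.05, and 4 with library size alone, where 8.92% were. The interaction was negative for 35 of the 37 genes, with a median of -0.20 on the log2 scale, and for 48.7% of all tested genes. It was -0.69 ± 0.20 for Acot2, -0.50 ± 0.17 for Slc27a1, -0.42 ± 0.15 for Lipe and -1.76 ± 0.63 for Ucp3. For Cd36 it was -0.35 ± 0.14 and for Acacb -0.40 ± 0.18. The edgeR adjusted p-values of these 6 genes were 0.418, 0.459, 0.467, 0.467, 0.488 and 0.506 in that order. That of Slc27a1 was -0.27 without WT-TAC replicate 2 (edgeR adjusted p = 0.817). Without HCN4F-TAC replicate 3, Acot2 was called lower, with 18 genes lower and 60 higher overall. The interaction also holds the genotype difference in Sham. HCN4F against WT was 0.98 for Ucp3, 0.32 for Acot2 and 0.25 for Lipe in Sham, and -0.78, -0.38 and -0.18 after TAC. For Slc27a1 the values were 0.069 in Sham and -0.43 after TAC. The comparisons share libraries, WT-TAC for instance serving both the WT response and the contrast between the TAC groups. With all libraries, a different TAC response of the genotypes was not shown for any of these genes.

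A further 58 genes of the pathway were read from the same fit, 56 of which could be tested. In HCN4F hearts after TAC 9 of them fell and none rose, 16.1% of the list against 6.41% of all tested genes that fell. In WT 2 fell and 1 rose, 3.57% and 1.79% of the list, against 1.62% and 2.92% of all tested genes, and these calls rest on 2 WT-TAC libraries. None was called between the genotypes or in the interaction. Their median log2 fold change in HCN4F was -0.11, closer to 0 than that of the 37 genes. The lowest p in HCN4F was that of Ech1, a dienoyl-CoA isomerase, with -0.77 ± 0.11 (edgeR adjusted p = 0.000333) and means of 1121 CPM in HCN4F-Sham and 657 CPM in HCN4F-TAC. Next came Ehhadh, the peroxisomal bifunctional enzyme, with -0.79 ± 0.14 (edgeR adjusted p = 0.00175), from 13.3, 11.5, 13.9 and 8.88 CPM in HCN4F-Sham to 6.47, 5.70, 8.30 and 6.96 CPM in HCN4F-TAC. Ehhadh also had the lowest p of the list in Sham, 0.63 ± 0.14 (edgeR adjusted p = 0.0554), and in the interaction, -0.96 ± 0.22 (edgeR adjusted p = 0.315).

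Dgat2, which makes triglyceride, fell in HCN4F with a log2 fold change of -0.45 (edgeR adjusted p = 0.0152), as did the lipid droplet protein Plin4 with -0.49 (edgeR adjusted p = 0.0267). Hsd17b10, a mitochondrial dehydrogenase, had -0.35 (edgeR adjusted p = 0.0196). The thioesterase Acot7 fell in both genotypes, by 19.1% in HCN4F and 23.4% in WT (edgeR adjusted p = 0.017 and 0.0375), and so did the peroxisomal thiolase Acaa1a, by 13.9% and 20.2% (edgeR adjusted p = 0.0246 and 0.0268). The acyl-CoA binding protein Dbi had -0.36 in HCN4F (edgeR adjusted p = 0.0415). Prkaa2, the catalytic subunit of AMP kinase in muscle, rose in WT with 0.61 ± 0.15 (edgeR adjusted p = 0.0342) and had 0.24 ± 0.13 in HCN4F (edgeR adjusted p = 0.235), and the fourth gene by p in WT was Ech1 with -0.47 ± 0.14 (edgeR adjusted p = 0.0612). Between the TAC groups the lowest p-values were those of Plin4, Abcd3, Abcd2 and Acss1, with log2 fold changes of -0.55, -0.33, -0.55 and -0.39. In Sham, Ehhadh was followed by Plin3, Gpam and Acot7, with -0.29, 0.81 and -0.24, and in the interaction by Slc22a5, Gpam and Plin4, with -0.60, -0.92 and -0.49.

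Markers of the cell types in the tissue were read from the same libraries, and their part in these results was not tested. Of the 10 cardiomyocyte markers 4 fell and 2 rose in HCN4F hearts after TAC, and their summed level was 75770 to 85147 CPM in HCN4F-Sham and 62480 to 74513 CPM in HCN4F-TAC. Their median log2 fold change was -0.24 in HCN4F and -0.14 in WT, where the 37 genes had -0.26 and -0.12. The log2 fold changes were -0.59 for Tnni3 and -0.27 for Myh6, which fell, and 0.30 for Actn2 and 0.38 for Mybpc3, which rose (edgeR adjusted p = 0.00221, 0.0358, 0.00761 and 0.00628). Of the 8 fibroblast markers 4 rose in HCN4F, among them Col1a1 with 1.14 (edgeR adjusted p = 0.00125), and the sum was 831 to 1072 CPM in HCN4F-Sham and 1020.0 to 1651 CPM in HCN4F-TAC, while the defining marker Pdgfra had 0.10 (edgeR adjusted p = 0.503). In WT after TAC Actn2 rose and Tnni3 and Tnnt2 fell among the cardiomyocyte markers, Dpt fell among the fibroblast markers, and the fibroblast sum was 801 to 960.0 CPM. Between HCN4F-TAC and WT-TAC all 10 cardiomyocyte markers had a negative log2 fold change (median -0.11), all 8 fibroblast and all 8 macrophage markers had a positive one (medians 0.58 each), and none was called. None of the 8 macrophage markers, 8 endothelial markers or 6 smooth muscle and pericyte markers was called after TAC in either genotype. Macrophage sums were 161 to 216 CPM in HCN4F-Sham and 157 to 262 CPM in HCN4F-TAC, endothelial sums 804 to 1403 and 1027 to 1079 CPM, and smooth muscle sums 780 to 1092 and 740.2 to 971 CPM. Fat cells, which also express Lipe, Pnpla2 and Fabp4, left little trace: the defining white marker Adipoq was at 0.181 CPM or less and the 8 white markers summed to 2.29 CPM or less in each library. Of the 3 white markers that could be tested, Cfd, at 0.687 CPM or less, fell in HCN4F (edgeR adjusted p = 0.0483). The brown marker Ucp1 was at 0.0376 CPM or less, Elovl3 was at 0 in all libraries, and Cidea, which heart muscle also expresses, made up nearly all of the brown sum of 21.4 to 27.6 CPM. The 7 atrial markers summed to 33.5 to 45.1 CPM in HCN4F-Sham and 28.0 to 69.4 CPM in HCN4F-TAC, with 1 called higher (Dkk3) and 1 lower (Kcnj3), and the skeletal muscle sum of 2393 to 7763 CPM was that of Ckm and Acta1, which heart muscle makes, with the defining Myh4 at 0.0456 CPM or less. Of the 4 skeletal muscle markers tested, Acta1 rose in HCN4F with a log2 fold change of 4.24 and in WT with 3.13 (edgeR adjusted p = 3.01e-05 and 0.00189), and Tnnt3, at 1.12 CPM or less, rose in HCN4F with 1.15 (edgeR adjusted p = 0.0283).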

How the data were processed

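The authors sequenced polyA-selected RNA of left ventricles and deposited read counts per gene, which are not normalized (genome build GRCm38 per the labels); the aligner, counter, annotation and use of strand are not given in the sources used here. The 2 columns that match no sample were not used, and rows without a gene name held 0.00715% of the counts. Whether these columns hold the WT-TAC libraries missing here was not tested. Counts were tested in R 4.3.3 with edgeR 4.0.16 (TMM scaling, filterByExpr, robust quasi-likelihood test, 1 mean for each of the 4 groups), and p-values were adjusted after Benjamini and Hochberg across the 15292 genes that passed. CPM values use TMM-scaled library sizes. Values per library on the log2 scale used a prior count of 2. A count of 3, the floor of detection, was 0.0859 to 0.137 CPM, for counting error only. The 37 genes and all lists were chosen with earlier results of these data known. Genes shown in full were those called in a comparison (at most 12 by p), up to 6 by unadjusted p between the TAC groups and in the interaction, and the most counted gene of each role. Other pathway genes were named by lowest p, 8 in HCN4F after TAC and 4 in each other comparison. Alternatives were DESeq2 1.42.0, fits on the compared groups, other scalings and filters, a replicate block and each library left out. Scripts were tested on simulated data. Exon overlaps and shared 50-base stretches came from GENCODE M21, where 99.47% of gene IDs were found, and promoter windows from RefSeq. Figures were drawn with matplotlib 3.10.9.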

Additional observations from a re-analysis of the deposited data

Results flagged for a closer look

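Of 111 groups of 4 libraries checked, 1 for each of the 37 genes in WT-Sham, HCN4F-Sham and HCN4F-TAC, 10 held a library whose gap to its nearest neighbour took a larger share of the range of the group than Dixon's 95% limit for 4 values, where chance gives about 1 in 20. In HCN4F-TAC, replicate 3 was far above the others for Plin5 (102 CPM against 81.6 to 83.5 CPM, ratio 0.9074) and Hadha (1377 against 1054 to 1092 CPM, ratio 0.8828), and replicate 2 was low for Cpt1a (40.4 against 44.2 to 44.7 CPM, ratio 0.8831). In HCN4F-Sham, replicate 2 was low for Cpt1b (48.4 against 71.8 to 72.6 CPM, ratio 0.9636) and replicate 1 high for Acads (217 against 179 to 184 CPM, ratio 0.8831). In WT-Sham, replicate 3 was low for Pnpla2 (387 against 442 to 452 CPM, ratio 0.839). It was high for Hadh (537 against 490.1 to 498 CPM, ratio 0.84), Decr1 (313 against 293 to 296 CPM, ratio 0.8514) and Oxct1 (1015 against 901 to 921 CPM, ratio 0.8291). WT-Sham replicate 1 was high for Acaa2 (878 against 746 to 766 CPM, ratio 0.8458). With all libraries no interaction passed the threshold in edgeR, which does not show that the genotypes respond alike, and Acot2 passed it without HCN4F-TAC replicate 3.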

How the results depend on the processing

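No called result reversed its direction under any of the alternatives run. In WT after TAC, where 2 genes of the module were called, DESeq2 called 4 in a fit of all groups (3 lower and 1 higher, with 2.97% and 5.04% of all genes) and 8 in a fit of WT alone (5 and 3, with 4.66% and 7.95%), edgeR called 7 in WT alone, and the fit with a replicate block 1. Leaving out 1 library gave 0 to 2, with 1 called without WT-Sham replicate 1 or 4 and 0 without either WT-TAC library, when the lone library left is assumed to vary like the other groups. In HCN4F after TAC, 14 to 23 genes were called with 1 library left out and 15 in edgeR with library size alone or in a fit of HCN4F alone, against 21. Of all genes, 3.86% to 7.44% were lower and 4.90% to 8.23% higher with 1 library left out, 3.67% and 11.9% with library size alone and 3.84% and 4.73% in HCN4F alone. The study's threshold was passed by 1 gene in edgeR on the compared groups and by 1 to 2 with a library left out (1 without HCN4F-TAC replicate 2 or 4). With library size alone the median of the 37 genes in HCN4F was -0.17 in place of -0.26, and that of all genes 0.081 in place of -0.0067. Scaled in that way, calls over all genes were 80.9% higher in WT (601 higher, 142 lower), against 64.4% (447 and 247), and 76.4% higher in HCN4F (1815 and 561), against 52.9% (1101 and 980). In Sham, 0 to 2 genes were called with a library left out, and over all genes 10 to 306 higher and 9 to 261 lower. Between the TAC groups, 1 was called by DESeq2 on all groups (Crat), 1 without a filter (Slc27a1, with 95 genes higher and 51 lower overall) and 0 to 6 with a library left out, of which 0 to 1 passed the study's threshold, with 1 to 323 genes higher and 4 to 131 lower overall. In the interaction it was 0 to 1, with 0 to 60 higher and 0 to 18 lower overall. Over 35 results of single genes, 745 of 828 alternative values kept their side of the threshold, 76 lost it and 7 gained it. Those that lost it were Acaa2 and Etfb in WT and, in HCN4F, Lpl, Fabp4, Slc25a20, Etfa, Eci2, Acadvl, Ucp3 and Acot1. The cause of these differences was not tested. Replicate numbers are shared by the groups, but same-numbered libraries did not deviate together (r from -0.177 to 0.224 over 18 pairs, 3 of them over 0.1), so the numbers were not taken as pairs; the replicate block changed the count in HCN4F after TAC from 21 to 20. Depth limits Acot1 most, which had 30 reads in its lowest library.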
